A study of Homo sapiens with 8 samples.

Results

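The ATP-binding cassette (ABC) transporter genes of LP-1 cells are described here by subfamily, from A to G, and gene by gene. LP-1 is a human multiple myeloma cell line, and the labels call it a B lymphoblast line. The members were all genes of the deposited gene table whose symbol is ABC, a subfamily letter from A to G and a number, and 44 of 18564 genes met this rule. They were 44 of the 45 protein-coding genes with such a symbol in RefSeq, and ABCC12 was not analysed here. RNA was sequenced from wild-type (WT) cells and from bortezomib-resistant (BR) cells, which by the labels had been kept with the proteasome inhibitor bortezomib for 2 months. Each line was given SI-2, which inhibits the co-activator SRC-3, at 25 nM for 24 h, or no SI-2, and there were 2 libraries in each of the 4 conditions. The libraries without SI-2 are titled DMSO while the treatment label of the WT ones reads untreated, and they are called vehicle below. Whether BR is a clone or a pool is not given in the sources used here. The study calls its BR libraries with SI-2 or vehicle biologically independent experiments. Whether this holds for the WT libraries is not given, so the p-values below measure the spread between these libraries, which may be technical.

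ABC proteins bind and hydrolyse ATP, and most of them use it to move lipids, peptides, metal complexes, conjugates or drugs across a membrane. Subfamily A moves lipids, B holds the P-glycoprotein drug pump ABCB1 and the mitochondrial transporters, and C holds the multidrug resistance proteins and the sulfonylurea receptors. Subfamily D carries fatty acids into peroxisomes and cobalamin out of lysosomes, and G holds the drug pump ABCG2 and the sterol transporters. Subfamilies E and F have the ATP-binding domains but no membrane part and act on ribosomes. In myeloma, drug efflux by such pumps is a classical route of resistance to chemotherapy.

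The libraries held 17997771 to 18570027 estimated counts on genes. The plasma cell and myeloma markers were present, with FPKM of at least 1 in every library for 9 of 10 of them (SLAMF7 was the exception), while the T cell, red cell and B cell markers were near 0. Every library resembled most closely a library of the same replicate number (8 of 8), and none (0 of 8) was closest to the other library of its condition. In replicate 1 the closest library was of the other line and the same treatment (r 0.9913 with vehicle, 0.9883 with SI-2). In replicate 2 it was of the same line and the other treatment (r 0.996 in WT, 0.9946 in BR). The library of BR cells with SI-2, replicate 2, stood apart. In it 136 genes with at least 20 counts were at least 8-fold above every other library, led by COL1A1 and COL3A1, and they took up 0.0702% of its counts, against at most 1 such gene in any other library. The 3 fibroblast markers COL1A1, COL1A2 and DCN summed to 15.1 FPKM there and to at most 0.1 elsewhere, and the 3 epithelial markers to 4.17 against at most 1.5. For several fold changes that rest on this library, the value without it is therefore given as well.

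LP-1 cells expressed 22 of the 44 ABC genes, where expressed means an FPKM (fragments per kilobase of transcript, scaled to the size of the library) of at least 1 in all 8 libraries. Another 4 genes (ABCA4, ABCB1, ABCB4 and ABCB11) were near 0, with at most 3 estimated counts in every library, and the remaining 18 were low. The share expressed was 50% against 56.8% of all genes in the table, and the share near 0 was 9.09% against 14.1%. Without the library that stood apart 22 genes were expressed and 6 were near 0, because ABCC8 and ABCG1 passed 3 counts in that library only. The ABC genes together took up 0.142 to 0.171% of the counts of a library.

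**Figure D1:**
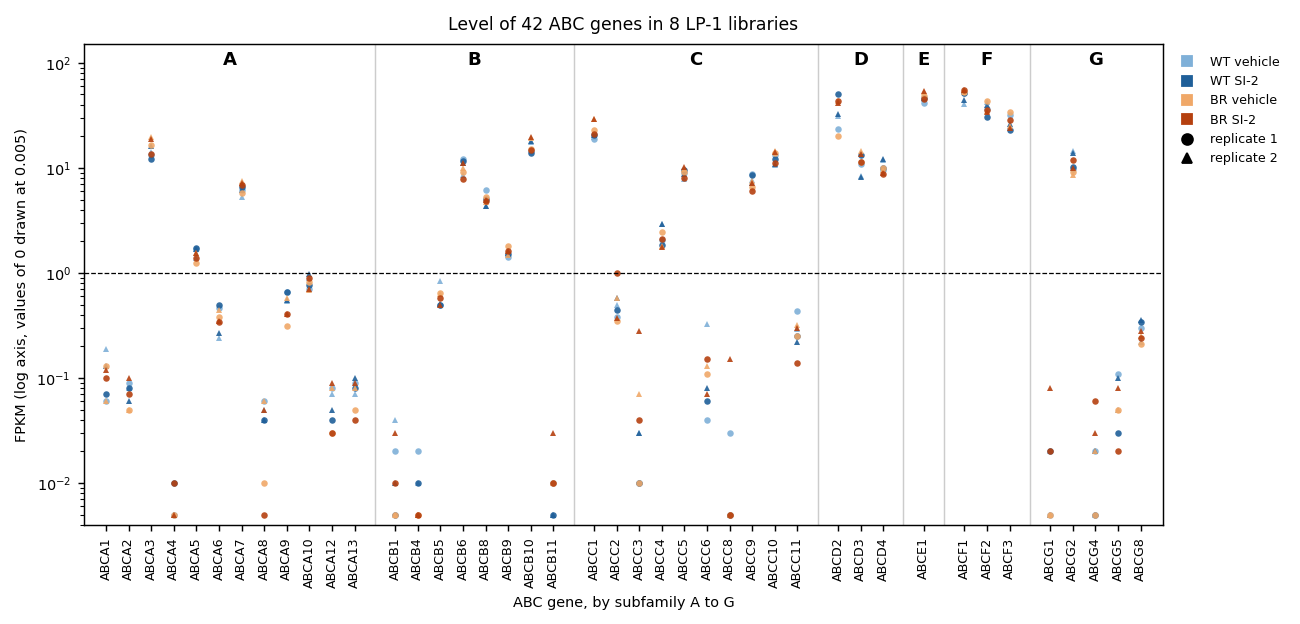
Level of 42 ABC genes in each of the 8 libraries, in FPKM on a log axis, grouped by subfamily A to G. Colours mark the 4 conditions, circles replicate 1 and triangles replicate 2, values of 0 are drawn at 0.005, and the dashed line is the limit of 1 FPKM. All plotted members of D, E and F lie above the line in every library, whereas in A, B, C and G the members spread over several orders of magnitude.

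The sequence upstream of the genes was set beside these classes, as a feature that the rule did not use. CG pairs are frequent in the promoters of broadly used human genes and rare in many tissue-restricted ones. RefSeq windows on GRCh38.p14, each from 250 bases before a transcript start to 50 after it (300 bases in all), were given for 34 of the 44 genes, ABCC1 not among them. The median number of CG pairs per window was 28 in the 19 expressed genes with a window, 8 in the 13 low ones and 5.75 in the 2 near 0, and over all genes of the table these medians were 26, 16 and 7. The letters GGGCGG, on either strand, occurred near 17 of the 19 expressed ABC genes (89.5%, against 77.9% of all expressed genes) and near 4 of the 13 low ones (30.8%, against 59% of all low genes), and they occur in 45% of all 35116 windows. The letters TATAAA, on either strand, occurred near 3 of the 19 expressed members (15.8%, against 7.77% of all expressed genes) and near 5 of the 13 low ones (38.5%, against 14.4% of all low genes), and they occur in 11.5% of all windows. A gene counted when any of its windows held the letters. The shares of all windows count single windows, so they are not comparable with the shares of genes. These matches describe the windows and are no evidence of binding. The 250 bases before the start are printed below, 5′ to 3′ in the direction of the gene and with CG in capitals. They begin with the highest of the 44 genes (ABCF1). A pair of genes of the chromosome 17 cluster in different classes (ABCA5 and ABCA6) comes next. An exception on either side (ABCD2 and ABCA2) and the drug pump near 0 (ABCB1) follow. Where a gene had several starts, the window with the most CG pairs is shown.
ABCF1, chr6:30571192-30571441, strand +: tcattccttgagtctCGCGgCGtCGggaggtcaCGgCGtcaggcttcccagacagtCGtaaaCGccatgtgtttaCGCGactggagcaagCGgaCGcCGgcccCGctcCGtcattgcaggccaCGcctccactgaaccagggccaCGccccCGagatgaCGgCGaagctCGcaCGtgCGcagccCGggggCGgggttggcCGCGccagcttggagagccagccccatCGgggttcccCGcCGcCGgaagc
ABCA5, chr17:69327134-69327383, strand -: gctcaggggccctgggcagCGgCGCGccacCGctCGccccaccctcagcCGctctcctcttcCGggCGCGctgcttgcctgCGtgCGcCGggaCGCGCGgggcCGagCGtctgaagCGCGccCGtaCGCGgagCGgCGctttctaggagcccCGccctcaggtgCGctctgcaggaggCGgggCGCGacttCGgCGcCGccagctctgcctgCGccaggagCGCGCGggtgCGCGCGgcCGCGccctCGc
ABCA6, chr17:69141896-69142145, strand -: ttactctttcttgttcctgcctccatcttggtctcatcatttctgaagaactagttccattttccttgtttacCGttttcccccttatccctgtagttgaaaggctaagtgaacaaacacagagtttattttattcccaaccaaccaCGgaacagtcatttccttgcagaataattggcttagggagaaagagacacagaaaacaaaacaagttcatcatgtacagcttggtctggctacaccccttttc
ABCD2, chr12:39619804-39620053, strand -: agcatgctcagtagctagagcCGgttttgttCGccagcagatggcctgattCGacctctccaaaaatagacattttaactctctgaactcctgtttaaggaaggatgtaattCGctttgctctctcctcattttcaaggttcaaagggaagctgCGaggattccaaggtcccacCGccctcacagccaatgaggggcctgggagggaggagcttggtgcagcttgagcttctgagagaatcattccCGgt
ABCA2, chr9:137028238-137028487, strand -: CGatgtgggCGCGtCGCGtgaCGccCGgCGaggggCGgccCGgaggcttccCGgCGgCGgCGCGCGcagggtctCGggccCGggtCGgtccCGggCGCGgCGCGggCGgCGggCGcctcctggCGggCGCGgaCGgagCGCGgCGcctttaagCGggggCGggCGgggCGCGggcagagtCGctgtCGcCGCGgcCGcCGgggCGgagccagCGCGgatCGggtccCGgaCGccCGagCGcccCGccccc
ABCB1, chr7:87600885-87601134, strand -: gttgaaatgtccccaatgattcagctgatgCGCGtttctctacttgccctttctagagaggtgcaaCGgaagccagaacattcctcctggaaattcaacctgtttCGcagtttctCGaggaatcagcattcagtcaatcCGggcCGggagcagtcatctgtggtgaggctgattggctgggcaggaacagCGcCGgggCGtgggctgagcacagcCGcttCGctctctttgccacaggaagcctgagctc

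Of these stretches, that of ABCF1 held 31 CG pairs and that of ABCA5 held 42, while ABCA6, which belongs to the same run of A-type genes on chromosome 17, held 2. ABCA5 was expressed and ABCA6 was low. ABCD2, the highest gene with a membrane part among the 44, was an exception. Its windows held a mean of 4 CG pairs, the fewest of any expressed member with a window. ABCA2 was the furthest exception of the opposite kind, with a mean of 41 CG pairs per window (16 and 66 at its 2 starts) and 7 to 14 counts in a library. It was not the only one, since the low genes ABCC6 and ABCG4 had a mean of 27 CG pairs and ABCA1 had 23.

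**Figure D2:**
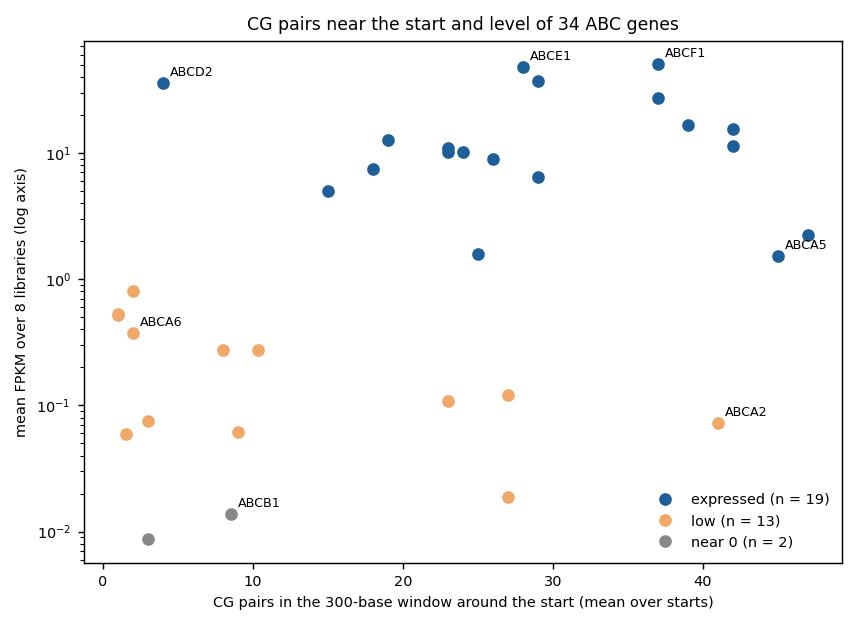
Mean FPKM over the 8 libraries (log axis) against the number of CG pairs in the 300-base window around the start, averaged over starts, for the 34 ABC genes with a RefSeq window. Expressed genes (blue) have 15 or more CG pairs except ABCD2, and the low (orange) genes have up to 41, the value of ABCA2.

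Subfamily F gave the highest summed level, with FPKM of 105 to 129 over the libraries, or 28.9 to 36.2% of the ABC total. ABCF1, which takes part in translation initiation, had a mean FPKM of 50.2 ± 5.19 (SD, n = 8 libraries), with 40.6 to 55.0 in single libraries. ABCF2 had 37.1 ± 4.25 and ABCF3 27.2 ± 3.86 in the same unit. ABCE1, the only E gene, which splits ribosomes after termination, had 47.5 ± 4.32 and ranged from 41.2 to 54.1, so that it overlapped ABCF1 almost entirely. The 4 genes without a membrane part thus included the 3 highest levels of the 44. ABCE1 and ABCF2 have pseudogene copies, as do ABCB10 and ABCA3, which are described below. ABCF2 also has an annotated read-through gene with its neighbour. The estimated counts of ABCB10 and ABCA3 were whole numbers in every library, while those of ABCE1 and ABCF2 were not. Reads of ABCE1 and ABCF2 may therefore have been divided among copies. Whether reads of copies were counted for ABCB10 and ABCA3 was not tested.

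All 4 genes of subfamily D were expressed, and their sum had the widest range of any subfamily, from 44.5 to 78.3 FPKM. ABCD2, a peroxisomal transporter of very-long-chain fatty acids, was the highest with 35.9 ± 10.7 (SD, n = 8), and ABCD3, which imports branched and other fatty acids, followed with 11.4 ± 2.32. ABCD4, the lysosomal cobalamin transporter, had 10.1 ± 1.29. ABCD2 also varied most between libraries among the expressed ABC genes, with a highest-over-lowest ratio of 2.52 against a median of 1.43 over the 22.

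Subfamily C had 5 of 10 genes expressed, and its sum ran from 49.8 to 64.0 FPKM. ABCC1 (MRP1), a pump for glutathione conjugates and several drugs, led with 22.9 ± 4.2 (SD, n = 8). ABCC10 had 12.6 ± 1.53, ABCC5, which exports nucleotide analogues, 9.0 ± 0.839, and ABCC4, which exports cyclic nucleotides, 2.24 ± 0.488. ABCC9, a sulfonylurea receptor of potassium channels, was expressed at 7.435 ± 0.902, whereas its relative ABCC8 had 12 counts in the library that stood apart and at most 2 in any other. ABCC3 had 25.3 counts in that same library and at most 7.24 in the others, and the part of the 136 genes of that library in these counts was not tested. ABCC2 (MRP2) had 99 counts in BR cells with SI-2, replicate 1, and 36 to 61 in all others. ABCC11 had 19.99 to 47.01 counts and ABCC6, which has pseudogene copies, 4 to 8.

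Subfamily B differed by the place of action. Transporters linked to mitochondria were expressed, among them ABCB10 at 16.6 ± 2.31, ABCB6, which binds porphyrins, at 10.2 ± 1.52 and ABCB8 at 4.94 ± 0.604 FPKM (SD, n = 8). ABCB9, a lysosomal peptide transporter, had 1.57 ± 0.124, but 67.4 to 84.9% of its counts were on noncoding models. The genes of the plasma membrane pumps were at the other end. ABCB1, which encodes P-glycoprotein, had 1.45 and 3 counts with vehicle and 0 and 1 with SI-2 in WT cells. In BR cells it had 0 and 0 with vehicle and 1 and 3 with SI-2. A few reads of ABCB1 were thus found in both lines and no library had more than 3, so no fold was computed and a difference between the lines was not detectable at this depth. ABCB4, which exports phosphatidylcholine into bile, had at most 1.55 counts and ABCB11, the bile salt pump, at most 1.99. ABCB5 was low, at 0.585 ± 0.12 FPKM.

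Subfamily A had 3 of 12 genes expressed. ABCA3, which loads surfactant lipids into lamellar bodies in the lung, gave most of its sum, with 15.6 ± 2.72 FPKM (SD, n = 8) of a total of 22.6 to 30.6, followed by ABCA7 with 6.43 ± 0.731 and ABCA5 with 1.53 ± 0.173. ABCA1, the cholesterol exporter, had 11 to 36 counts, and ABCA2 7 to 14. The neighbours of ABCA5 on chromosome 17 were lower than it, with mean FPKM of 0.805 for ABCA10, 0.515 for ABCA9, 0.372 for ABCA6 and 0.0387 for ABCA8, and ABCA10 was the only gene that would join the expressed class at a limit of 0.5 FPKM. ABCA5 and ABCA10 overlap in the annotation, as do ABCA6 and ABCA9, and the strand used for counting is not given in the sources used here. ABCA4, the retinal transporter, had at most 1 count. ABCA12 and ABCA13 had 4.99 to 13 and 13.3 to 31.6 counts.

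Subfamily G was the lowest, at 8.94 to 14.8 FPKM, and ABCG2 made up nearly all of it. ABCG2 (BCRP), a drug and urate pump, had 11.02 ± 2.21 (SD, n = 8) and was the only G gene that was expressed. The sterol transporters were low, with 17.6 to 30.9 counts for ABCG8 and 1 to 4.36 for its partner ABCG5, which overlaps it. ABCG1, the partner of ABCA1 in cholesterol efflux, had 6 counts in the library that stood apart and at most 2.03 elsewhere, and ABCG4 had at most 3.8. Among the classical drug pumps, ABCC1 and ABCG2 were thus expressed and ABCB1 was near 0. ABC genes outside the symbol rule were also measured. The antigen peptide transporters TAP1 (68.9 to 86.8 FPKM) and TAP2 (25.8 to 35.8) were expressed and the chloride channel CFTR had at most 3 counts.

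BR and WT cells were compared first with 4 libraries of each line, by the quasi-likelihood test of edgeR, with p-values adjusted (Benjamini-Hochberg) over all 13520 genes that passed the filter on low counts. The filter kept 33 of the 44 ABC genes, and 11 were not tested. None of the 33 (0) was called at an adjusted p under 0.05, against 0.362% of all genes tested, and DESeq2 and limma also called 0. At an unadjusted p under 0.05 there were 4 of the 33, among them ABCC1, ABCC9 and ABCA9, against 14.4% of all genes. The median log2 fold change of the 33 was -0.04, with 16 higher and 17 lower in BR cells, and the median over all genes was 0.0042. The 95% intervals had a median half-width of 0.302 on the log2 scale, and the widest, for a low gene, was 0.882. This fit counts the 4 libraries of a line as independent, although the replicate 2 libraries of a line resembled each other across treatments. Its p-values may therefore be too small and its intervals too narrow. The line and its culture with bortezomib cannot be told apart in this comparison, and in bulk RNA neither can fewer cells with a transcript and less of it per cell.

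ABCC1 came closest to a difference between the lines. Its FPKM in WT cells were 19.0 and 19.7 with vehicle and 20.8 and 20.7 with SI-2. In BR cells they were 22.8 and 29.45 with vehicle and 21.2 and 29.41 with SI-2. All BR libraries lay above all WT libraries, which held for ABCC1 alone among the 33 (1, with none below) and for 3.78% of all genes upward and 4.36% downward. The fitted log2 fold change was 0.34 (SE 0.105, 95% interval 0.11 to 0.57), with an unadjusted p of 0.0081 and an adjusted p of 0.208 by edgeR's quasi-likelihood test. Without the library that stood apart it was 0.29, with an adjusted p of 0.433. The replicate 2 libraries of BR cells were the high ones. In replicate 1 the BR-to-WT log2 ratio was 0.27 (vehicle) and 0.03 (SI-2), and in replicate 2 it was 0.58 and 0.51.

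Among genes with a mean of at least 50 counts, the lowest log2 fold changes belonged to ABCA9 and ABCG2. ABCA9 had 75.7, 62.2, 75.3 and 63.1 counts in the WT libraries and 36.2, 66.6, 48.0 and 47.6 in the BR libraries, with a log2 fold change of -0.52 (SE 0.197) and an adjusted p of 0.278 (edgeR). ABCG2 had FPKM of 9.86, 14.5, 10.2 and 14.0 in WT cells and of 9.15, 8.62, 11.9 and 9.96 in BR cells, with -0.32 (SE 0.164) and an adjusted p of 0.396 (edgeR). The ranges of the lines overlapped for both genes. ABCC9 ran from 7.14 to 8.76 in WT and from 6.09 to 7.54 in BR cells, with -0.26 (SE 0.0985) and an adjusted p of 0.278 (edgeR). ABCA3, for which the study had made primers, had 12.1 to 16.1 FPKM in WT and 13.6 to 19.6 in BR cells, with 0.27 (SE 0.126) and an adjusted p of 0.368 (edgeR). The log2 fold changes without the library that stood apart were -0.485 for ABCA9, -0.31 for ABCG2, -0.26 for ABCC9 and 0.24 for ABCA3. ABCA2, at 7 to 14 counts, had -0.28 (SE 0.292), and ABCB1, ABCC3 and ABCG5 were too low to be tested.

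**Figure D3:**
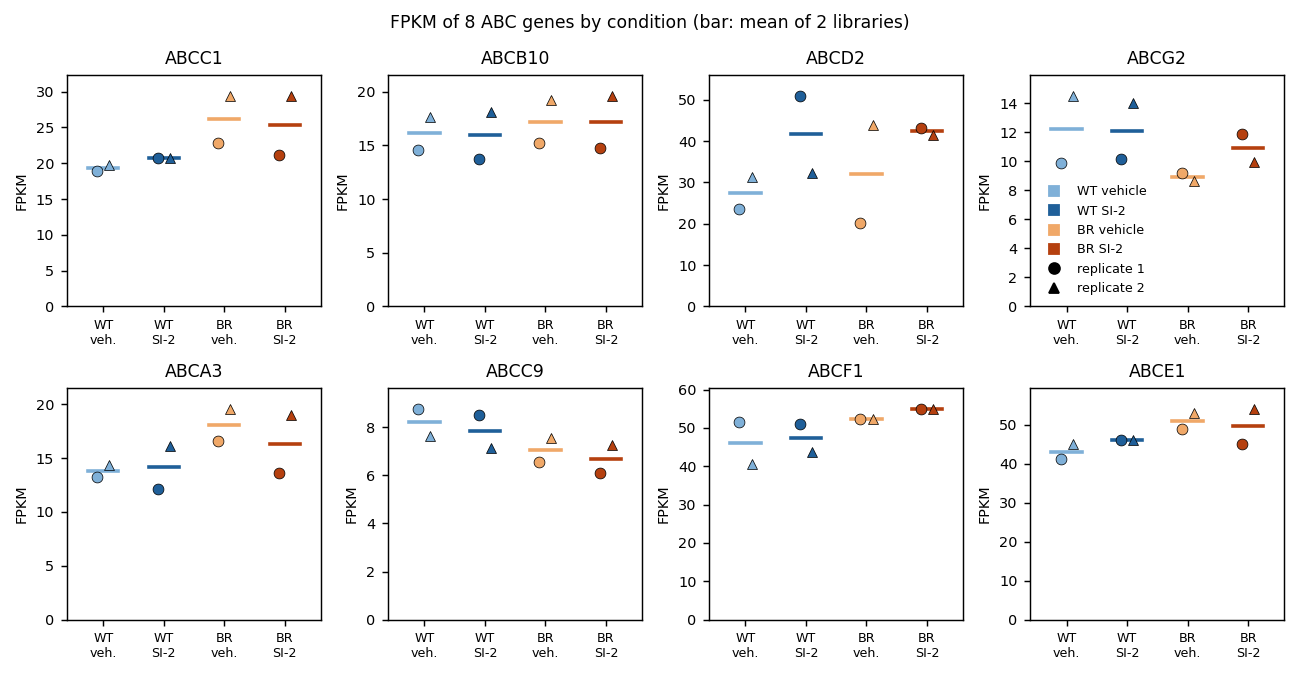
FPKM of 8 ABC genes in the 4 conditions, with a circle for replicate 1, a triangle for replicate 2 and a bar for the mean of the 2 libraries. The BR libraries of ABCC1 sit at 21.2 to 29.45, above the WT libraries at 19.0 to 20.8, and the ABCD2 values with vehicle spread from 20.3 to 43.8.

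Within each treatment the lines were compared with 2 libraries a side in a fit over all 4 conditions (13896 genes). With vehicle, 0 of 33 ABC genes were called, against 0% of all genes. At an unadjusted p under 0.05 there was 1, against 3.89%, namely ABCC1, with a log2 fold change of 0.41 (SE 0.174) and an adjusted p of 0.967 (edgeR). The libraries of the lines did not overlap for 6 ABC genes that were higher in BR (ABCA3, ABCC1, ABCC5, ABCC10, ABCD3 and ABCE1), against 15.6% of all genes, and for 3 that were lower (ABCA2, ABCC9 and ABCG2), against 17.6%. With SI-2, 0 of 33 were called, against 0.0072%, and 0 had an unadjusted p under 0.05, against 4.09%. The libraries did not overlap for 4 that were higher, among them ABCA7, ABCC1 and ABCF1, against 13.3%, and for 6 that were lower (ABCA5, ABCA9, ABCB6, ABCC9, ABCD4 and ABCG8), against 15.2%. ABCC1 (higher) and ABCC9 (lower) were the 2 genes separated under both treatments. The share of all genes separated under both was not computed, so this is a description only.

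Of the genes with a mean of at least 50 counts, ABCG2 had the lowest log2 fold change with vehicle, -0.49 (SE 0.248), followed by ABCA9 with -0.47 (SE 0.315), both with an adjusted p of 0.967 (edgeR). Leaving out single libraries moved ABCG2 from -0.73 (without WT vehicle replicate 1) to -0.18 (without WT vehicle replicate 2) and ABCA9 from -0.93 (without BR vehicle replicate 2) to -0.11 (without BR vehicle replicate 1). With SI-2 ABCC2 had 0.36 (SE 0.45), while ABCA9 had -0.57 (SE 0.317) and ABCC4 -0.34 (SE 0.302), all with an adjusted p of 0.998 (edgeR). The ABCC4 value was -0.0026 without WT SI-2 replicate 2 and -0.63 without WT SI-2 replicate 1. The ABCC2 value rests on the library with 99 counts, and without the library that stood apart it was 0.90 with an adjusted p of 0.975 (edgeR). That fit leaves a single BR library with SI-2, which is assumed to vary like the other groups.

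**Figure D4:**
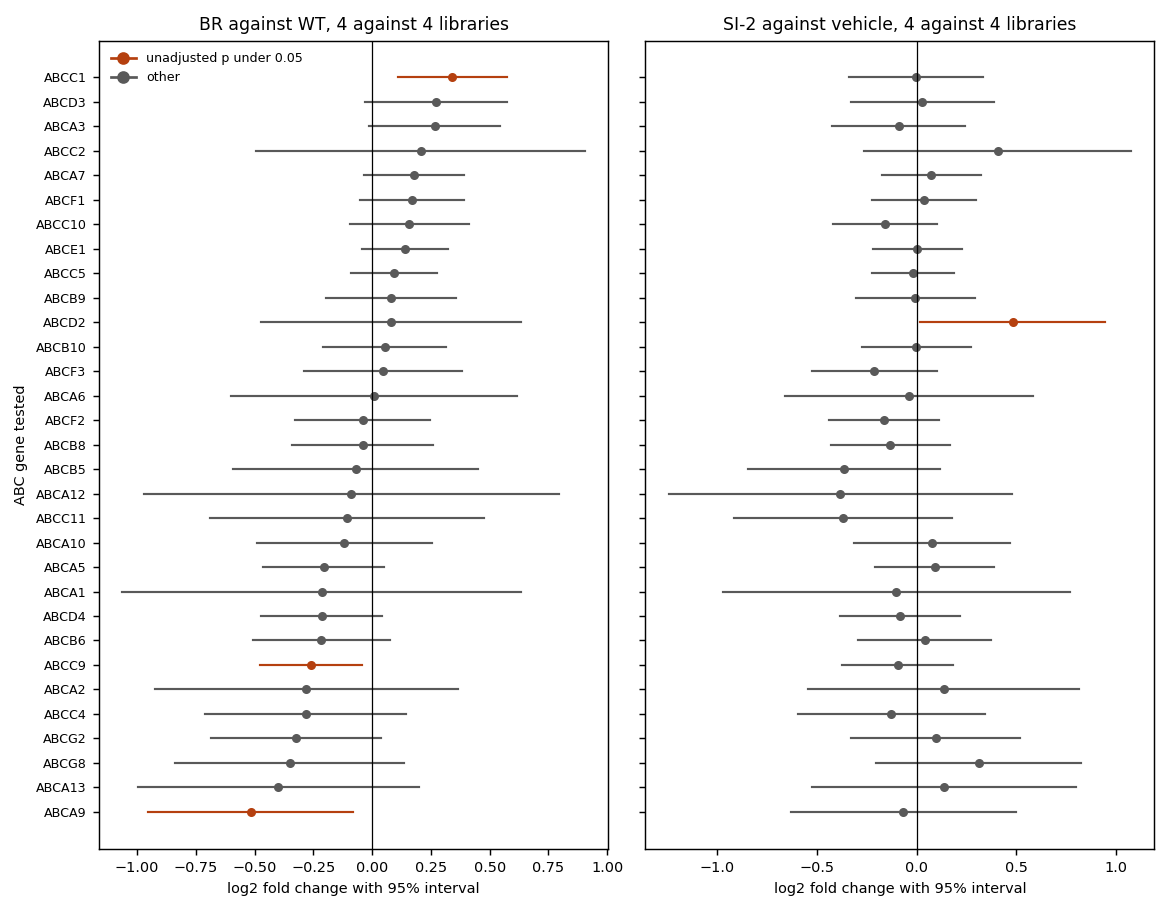
Log2 fold changes of 31 tested ABC genes with 95% intervals, for BR against WT (left) and SI-2 against vehicle (right), each with 4 against 4 libraries. Orange marks an unadjusted p under 0.05, which holds for 3 of the plotted genes on the left and for ABCD2 on the right, and none of the 31 passed an adjusted p under 0.05.

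SI-2 was compared with vehicle in the same way, to ask whether inhibition of SRC-3 moved transporter genes. With 4 against 4 libraries, 0 of the 33 ABC genes were called, against 0% of all genes, and DESeq2 and limma also called 0. At an unadjusted p under 0.05 there was 1 gene, ABCD2, against 2.22% of all genes. No ABC gene (0) had treatment groups that did not overlap, against 0.666% of all genes upward and 0.777% downward. The median log2 fold change was -0.0018, with 15 higher and 18 lower. The intervals had a median half-width of 0.335, and the whole range of the fitted values was -0.38 to 0.48. The fit did not pair libraries by replicate number. Yet the differences between replicates correlated at 0.601 (WT) and 0.55 (BR) between the treatments of a line. The p-values of SI-2 against vehicle, also within a line and for the interaction, may therefore be too large and the intervals too wide. With a replicate block shared by both lines 0 ABC genes were called.

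ABCD2 had the highest fitted log2 fold change with SI-2. Its FPKM were 23.7 and 31.2 in WT cells with vehicle and 51.0 and 32.4 with SI-2. In BR cells they were 20.3 and 43.8 with vehicle and 43.3 and 41.6 with SI-2. The log2 fold change was 0.48 (SE 0.21, 95% interval 0.02 to 0.95), with an unadjusted p of 0.0427 and an adjusted p of 0.999 (edgeR). Between libraries of the same line and replicate number the SI-2-to-vehicle log2 ratio was 1.11 in WT and 1.09 in BR cells in replicate 1, but 0.05 and -0.07 in replicate 2. The difference was therefore present in the replicate 1 libraries of both lines and not seen in the replicate 2 libraries, and what sets the replicate numbers apart is not given in the sources used here. In replicate 1 each library was closest to that of the other line under the same treatment, so the ratios of 1.11 and 1.09 may not be independent. Without the library that stood apart the log2 fold change over both lines was 0.50. Without BR vehicle replicate 1, the lowest library, the log2 fold change in BR cells alone was -0.03, against 0.41 (SE 0.321) with it.

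The other fitted values with SI-2 were nearer to 0. ABCC2 followed ABCD2 with a log2 fold change of 0.41 (SE 0.303), and its library of 99 counts is in this group. ABCA2 had 0.14 (SE 0.308), ABCA3 -0.09 (SE 0.151) and ABCC1 -0.0018 (SE 0.152). At the low end, among genes with a mean of at least 50 counts, ABCF3 had -0.21 (SE 0.142) and ABCF2 -0.16 (SE 0.125). The adjusted p of each of these genes was 0.999 or above (edgeR). Within the 4 pairs of libraries of the same line and replicate number, 2 of the 22 expressed ABC genes, ABCA5 among them, were higher with SI-2 in all 4, and 3 (ABCC4, ABCC9 and ABCF2) were lower in all 4, beside 14.3% and 9.6% of all expressed genes.

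**Figure D5:**
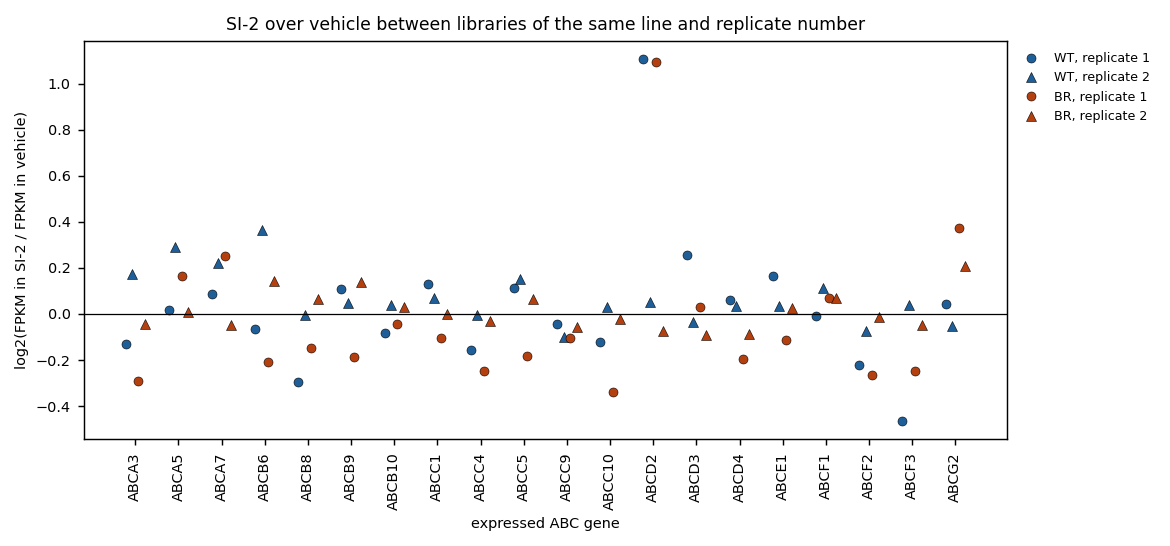
Log2 ratio of FPKM, SI-2 over vehicle, between libraries of the same line and replicate number, for 20 expressed ABC genes. Blue is WT, orange is BR, circles are replicate 1 and triangles replicate 2, and the ratios of ABCD2 are 1.11 and 1.09 in replicate 1 and lie near 0 in replicate 2.

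The SI-2-to-vehicle ratios spread more in replicate 1 than in replicate 2, for the ABC genes and for all genes alike. The median size of the SI-2-to-vehicle log2 ratio over the 22 expressed ABC genes was 0.124 in WT and 0.19 in BR cells in replicate 1, and 0.0522 and 0.0608 in replicate 2. Over all expressed genes these medians were 0.183 and 0.19, and 0.0865 and 0.0681. Between the lines the order was the other way, with medians for the ABC genes of 0.221 with vehicle and 0.187 with SI-2 in the first replicate, against 0.323 and 0.232 in the second, and for all expressed genes of 0.135 and 0.158 against 0.263 and 0.255. In the BR-to-WT ratios, 5 of the 22 genes, among them ABCA3, ABCB10, ABCC1 and ABCF1, were higher in BR cells in all 4 pairs, beside 17.8% of all expressed genes, and 0 were lower in all 4, beside 12.5%.

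In BR cells alone, SI-2 called 0 of 33 ABC genes, against 0% of all genes, with 0 at an unadjusted p under 0.05, against 1.2%. The treatment groups did not overlap for 3 higher genes (ABCA2, ABCG2 and ABCG8), against 10.7%, and 3 lower ones (ABCA6, ABCC10 and ABCD4), against 11.2%. Of the genes with a mean of at least 50 counts, ABCC2 had the highest log2 fold change, 0.57 (SE 0.454), followed by ABCD2, and ABCD4 with -0.21 (SE 0.183) and ABCC10 with -0.20 (SE 0.175) had the lowest. Leaving out the library that stood apart keeps a single BR library with SI-2. The values were then 1.11 for ABCC2, 0.47 for ABCD2, -0.18 for ABCD4 and -0.34 for ABCC10. DESeq2 and limma called 0 ABC genes in each line, in each treatment and in the interaction. In WT cells alone, 0 were called, against 0%, and 0 had an unadjusted p under 0.05, against 0.533%. Separated groups were found for 4 higher genes (ABCC1, ABCD2, ABCE1 and ABCG8), against 10.9%, and 3 lower ones (ABCA2, ABCA12 and ABCB5), against 12.3%. Among genes of that mean count ABCD2 had 0.56 (SE 0.322), while ABCF3 had -0.23 (SE 0.225) and ABCB8 -0.19 (SE 0.212). ABCG8 was separated upward in both lines, and ABCA2 in opposite directions, at 7 to 14 counts. Here too the share of all genes separated in both lines was not computed. The comparisons of SI-2 in BR cells and of BR with WT cells share libraries, as do the others, so these counts are not independent.

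The difference of the SI-2 effect between the lines was tested directly as an interaction. None of the 33 ABC genes (0) was called, against 0% of all genes. At an unadjusted p under 0.05 there were 0, against 0.533%. Among genes with a mean of at least 50 counts the highest values were ABCC2 with 0.35 (SE 0.647) and ABCG2 with 0.32 (SE 0.349), and the lowest were ABCD4 with -0.23 (SE 0.258) and ABCD3 with -0.22 (SE 0.307). The ABCG2 value was 0.0032 without WT vehicle replicate 2 and 0.59 without WT SI-2 replicate 2. For ABCD2 the interaction was -0.16 (SE 0.454, 95% interval -1.18 to 0.87). The intervals of the 33 had a median half-width of 0.695.

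Genes that work with the transporters were counted in the same comparisons, and by edgeR's test 0 of each list were called in the 2 comparisons of 4 against 4 libraries. For BR against WT, 4 of 6 peptide loading genes (CALR, CANX, PDIA3 and TAPBPL) had an unadjusted p under 0.05, with a list median of -0.28, beside the 14.4% of all genes given above. TAP1 and TAP2 had 0 of 2 at that level, with a median of 0.10. The peroxisome import and oxidation list had 1 of 9 (HSD17B4, median -0.03), the heme and iron-sulfur list 2 of 7 (HSCB and FECH, median 0.03) and the ribosome recycling and initiation list 1 of 8 (GSPT1, median -0.14). The list around the sterol sensor LXR had 1 of 7 (SREBF1, median -0.01), and the drug response regulators had 0 of 6 (median 0.17). For SI-2 against vehicle every list had 0 at an unadjusted p under 0.05, and the list medians ran from -0.15 to 0.03. The xenobiotic receptor NR1I2, which regulates ABCB1 in liver, was near 0. CALR had 236 and 228 FPKM in BR replicate 2, 472 and 411 in BR replicate 1, and 402 to 560 in WT. PDIA3 had 145 and 131, 236 and 190, and 218 to 303 in the same order. For 2 of the 6 peptide loading genes, CANX and TAPBPL, all BR libraries lay below all WT libraries, against 4.36% of all genes.

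The transcripts behind a gene count differed between members. ABCA3, ABCF1 and ABCA10 each had a single transcript in the deposited transcript table, so their values refer to that transcript. ABCC1 had 9, of which the leading model took 42.4 to 60.3% of its counts, and all 9 were coding. Noncoding models took 41.8 to 58.3% of the counts of ABCD4, 31.3 to 41.8% of ABCA7 and 21.1 to 27.2% of ABCD2. They took 9.45 to 28.7% of the counts of ABCC10 and 0 to 22.9% of ABCC2. For these genes the gene-level FPKM is therefore not the level of a protein-coding message alone.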

How the data were processed

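RNA from 8 LP-1 libraries (2 per condition) had been sequenced on the BGISEQ-500 platform, with low-quality reads removed. The authors deposited an estimated count and an FPKM for each gene and each transcript. Per the labels, the submitters' processing notes name BWA, Bowtie2, RSEM and hg19, and the annotation is not given in the sources used here. Columns of condition averages (8) and tables of the authors' own fold changes and p-values were not used.

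The members and lists were chosen with earlier results of these data known. Libraries were grouped by their labels. Levels are the deposited FPKM, which are per length, and classes use the limits given above. For tests, estimated counts were rounded, filtered with filterByExpr, scaled by TMM (factors 0.971 to 1.06) and fitted with edgeR 4.0.16 (glmQLFit and glmQLFTest, R 4.3.3), with Benjamini-Hochberg adjustment over all genes and a threshold of 0.05. Whether libraries overlapped was judged on scaled CPM. Fold changes are given for called genes, the 2 highest and the 2 lowest of each comparison with a mean of at least 50 counts, genes at an unadjusted p under 0.05 in a comparison of 8 libraries, and 7 genes with primers in the study. A few others were named with their values known. For 2 members, counted in the totals, no values are reported here. Lists were peptide loading, LXR axis, peroxisome, heme and iron-sulfur, ribosome recycling, drug response regulators, the 3 ABC genes outside the rule, and cell type markers. The monocyte markers summed to 1.65 to 3.28 FPKM and the liver markers to 0.18 to 0.87.

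Alternatives were upper-quartile and library size scaling, no filter, a CPM filter (1 in 2 libraries), the replicate block, DESeq2 1.42.0, limma 3.58.1 on log2(FPKM + 1), a surrogate variable (sva 3.50.0), additive terms, only the libraries compared, and leaving out each library. Intervals and the limit of 3 counts cover counting error or the spread between libraries only. Libraries of the same condition differed beyond sampling noise (chi-square per degree of freedom 26.8 to 40.2), so each was counted once. The main fits took all libraries as independent, although libraries with the same replicate number resembled each other across conditions.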

Additional observations from a re-analysis of the deposited data

Results flagged for a closer look

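In groups of 4 libraries (each line and each treatment), 9 of 132 groups of the 33 ABC genes with at least 10 counts in 2 or more libraries had a highest or lowest value far from the other 3 by Dixon's test, or 6.82%. The limit of this test gives about 1 in 20 for independent values from a single normal population. Each group here joins 2 conditions and the share over all genes was not computed, so no chance rate is set beside 6.82%. The groups share libraries, so the flags are not independent. The library of BR cells with SI-2, replicate 2, was the high value among the 4 SI-2 libraries for ABCC1 (29.41 FPKM, next 21.19) and ABCE1 (54.09, next 46.19). ABCC3 (0.28, next 0.04) and ABCC8 (0.15, next 0, also among the BR libraries) reached 10 counts in this library alone and were screened only through it, so their high value there is a description and is not in the count above. This is the library with fibroblast and epithelial genes described above, and the part of those genes in the ABC values was not tested. In BR vehicle replicate 2, the library closest to this one (r 0.9946), ABCC1 was at 29.45 FPKM.

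BR vehicle replicate 1 was the low value of ABCD2 among the BR libraries (20.28, next 41.58) and the high value of ABCF2 (43.0, next 35.78). BR cells with SI-2, replicate 1, gave the low value of ABCC10 among the BR libraries (11.07, next 13.98) and of ABCB6 among the SI-2 libraries (7.92, next 11.02). WT vehicle replicate 2 gave the low value of ABCA5 among the WT libraries (1.38, next 1.69), the low value of ABCF1 among the vehicle libraries (40.56, next 51.41) and the high value of ABCB5 among the WT libraries (0.84, next 0.51). ABCC8 in WT vehicle replicate 1 (0.03 FPKM, or 2 counts) was the only value above 0 among the WT and among the vehicle libraries, and it too is not in that count.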

How the results depend on the processing

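In all 7 comparisons 0 ABC genes were called, and this held under every alternative and without any single library. The number of expressed genes was 22, 23 at a limit of 0.5 FPKM, 19 at 2 FPKM (without ABCA5, ABCB9 and ABCC4) and 28 at 1 CPM. The number of all genes called for BR against WT was 49, from 21 to 125 without single libraries, 155 with the replicate block, 213 with a surrogate variable and 399 with DESeq2, and for BR against WT under vehicle and SI-2 DESeq2 called 28 and 34 against 0 and 1. With the replicate block 0 ABC genes were called, and every library was closest to a library of its own replicate number, and the differences between replicates correlated at 0.601 (WT) and 0.55 (BR) between the treatments of a line but at -0.255 to 0.218 between the lines. The labels do not say what a number shares, so the numbers were not taken to pair the libraries.

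The adjusted p of ABCC1 for BR against WT ran from 0.0637 (surrogate variable) to 0.512 over all alternatives, with 0.0728 in DESeq2. Of 264 values of 30 fold changes under alternatives other than leaving out a library, 261 kept their direction. The 3 that did not were ABCC1 with SI-2 (-0.0018) at 0.0202 with library size scaling, 0.022 in limma and 0.0061 with additive terms. Leaving out single libraries turned the direction of 8, for which the cause was not tested beyond the smaller number of libraries. These were SI-2 against vehicle for ABCA3 (-0.19 to 0.0035) and ABCC1 (-0.12 to 0.13), SI-2 in WT for ABCB8 (-0.43 to 0.10), SI-2 in BR for ABCC2 (-0.31 to 1.11) and ABCD2 (-0.0252 to 0.99), BR against WT under SI-2 for ABCC2 (-0.52 to 0.90), and the interaction for ABCC2 (-0.53 to 0.89) and ABCD3 (-0.44 to 0.0284). Of the 30 fold changes, 23, these 8 included, moved by over 1.5 times without some library. Where a condition kept 1 library, it was assumed to vary like the others. Genes of a few counts such as ABCB1 were left out by the filter and tested only without it.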
